A study of Mus musculus with 3 samples.

Results

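The homeobox, Pax and POU transcription factors were followed in retinas that lack Rp1, which in photoreceptors binds the microtubules of the outer segment. Members were the probe sets with a single gene symbol in the platform annotation that begins with one of the family names (Hoxa to Hoxd, Pax, Lhx, Otx, Dlx, Msx, Meis, Pbx, Nkx, Irx, Pou, Emx, Vsx, Pitx, Cdx, Gbx, Hhex, Lmx, Isl, Onecut, Zfhx and Rax, and the numbered relatives of Six3), with Lhx1 left out. This gave 118 probe sets for 98 genes, of 12422 non-control probe sets and 8251 genes in all, and no probe set for Otx, Vsx or Emx genes. All 118 symbols were the same in a current mouse gene table. Names alone decided membership, so it also took in Paxbp1 (a Pax-binding protein), Pou2af1 (a coactivator of POU factors) and the RNAs Dlx1as, Dlx6os2 and Hoxa11os, which lie opposite homeobox genes.

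Each of the 3 arrays, of the Affymetrix U74Av2 design, was hybridised with total RNA from pooled neural retinas of 3 to 4 Rp1-/- mice on a mixed 129/SvEv and C57BL/6 background, killed at postnatal day 10 (P10) with collection between 1 and 2 pm. The arrays formed 1 group, with no control genotype analysed here, so every comparison is between pools of mutant retinas and says nothing of the effect of losing Rp1. The labels gave no replicate numbers, and pools 1 to 3 were named in accession order. Only the titles of pools 2 and 3 include rp1, although all descriptions name the knockout. Rp1 itself was not analysed here, so the genotype was not checked on the arrays. Nothing in the labels said whether the pools shared litters, so the spread is that between these RNA samples, some of which may be technical. The number of arrays limits the precision, and in whole-tissue RNA fewer cells of a type cannot be told apart from less RNA per cell.

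Homeodomain proteins bind DNA through a helix-turn-helix fold. Pax proteins add or substitute a paired domain, and POU proteins pair a POU-specific domain with the homeodomain. In the eye, Pax6, Rax and Six3 act in the progenitors that form the retina, and later members mark single cell types, such as Isl1 in ganglion, amacrine and bipolar cells. Hox genes pattern the trunk and hindbrain and are not known as regulators of retinal cell types.

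Promoter sequences are shown because they hold a feature, a high CpG content, that was common among both detected and undetected members. RefSeq promoters (GRCm38.p6) matched 71 of the 98 member genes, with 81 start sites, and the 250 bases before each start were read. The sequences below run 5′ to 3′ on the gene's strand, with CpG dinucleotides in capitals. Pax6, Isl1 and Six3 gave signal in all pools, whereas the only Six6 probe set and the only Hoxd13 probe set stayed under background in all of them.
Pax6, chr2:105668646-105668895, plus strand: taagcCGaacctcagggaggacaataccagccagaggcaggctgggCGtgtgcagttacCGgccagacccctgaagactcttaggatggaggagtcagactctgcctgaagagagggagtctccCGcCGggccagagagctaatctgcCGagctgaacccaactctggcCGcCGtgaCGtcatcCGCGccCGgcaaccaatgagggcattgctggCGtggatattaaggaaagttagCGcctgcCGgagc
Isl1, chr13:116309689-116309938, minus strand: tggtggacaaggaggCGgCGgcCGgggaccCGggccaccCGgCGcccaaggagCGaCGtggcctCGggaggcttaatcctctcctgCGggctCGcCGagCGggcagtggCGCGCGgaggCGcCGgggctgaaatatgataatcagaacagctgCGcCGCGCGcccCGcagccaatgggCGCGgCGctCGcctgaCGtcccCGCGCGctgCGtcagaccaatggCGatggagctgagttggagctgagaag
Six3, chr17:85620584-85620833, plus strand: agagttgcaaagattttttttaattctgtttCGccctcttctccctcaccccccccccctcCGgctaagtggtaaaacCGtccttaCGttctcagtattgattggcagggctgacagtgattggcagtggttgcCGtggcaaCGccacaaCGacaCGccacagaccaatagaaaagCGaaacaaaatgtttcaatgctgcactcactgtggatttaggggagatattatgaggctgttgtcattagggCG
Six6, chr12:72939632-72939881, plus strand: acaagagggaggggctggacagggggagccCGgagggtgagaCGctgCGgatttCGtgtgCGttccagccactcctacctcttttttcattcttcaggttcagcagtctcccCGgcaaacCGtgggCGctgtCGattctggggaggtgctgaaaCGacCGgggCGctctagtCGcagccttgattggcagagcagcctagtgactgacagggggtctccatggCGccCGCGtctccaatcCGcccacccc
Hoxd13, chr2:74667975-74668224, plus strand: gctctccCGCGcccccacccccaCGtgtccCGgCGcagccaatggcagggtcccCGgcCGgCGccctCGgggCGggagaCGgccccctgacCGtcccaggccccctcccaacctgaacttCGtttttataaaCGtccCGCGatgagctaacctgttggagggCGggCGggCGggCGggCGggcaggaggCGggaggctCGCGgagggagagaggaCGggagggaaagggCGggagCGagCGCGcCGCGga

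The ratio of observed to expected CpG (the CpG count times the window length, divided by the product of the C and G counts) was 0.65 for the Pax6 window, 1.05 for Isl1, 0.67 for Six3, 0.69 for Six6 and 0.90 for Hoxd13. Their GC contents were 60.8%, 71.2%, 48.8%, 62.8% and 74.4%. Over the 81 member windows the median ratio was 0.68, against 0.37 over all 32851 promoter windows of the RefSeq table. A ratio above 0.6 was found in 51 member windows (63.0%) and in 34.0% of all windows. The 26 windows of genes detected in every pool had a median of 0.70, and the 32 windows of genes detected in none had 0.65. A ratio above 0.6 was found in 69.2% of the former and 56.25% of the latter. All windows printed above exceed 0.6, but they are chosen examples. The undetected Hoxd11 had 0.16 in one window and 0.88 in another, and a further window of Pax6 had 1.06. Windows of neighbouring genes in a Hox cluster and several starts of 1 gene are not independent, and no test was made. The homeodomain core TAATTA, which reads the same on both strands, was in 3 member windows (3.70%) and in 4.84% of all. TGACAG, the motif of Meis-type homeodomains, was searched on both strands and was in 13 of the 81 member windows and in 15.9% of all. These matches are letters in a window and not binding sites.

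**Figure D1:**
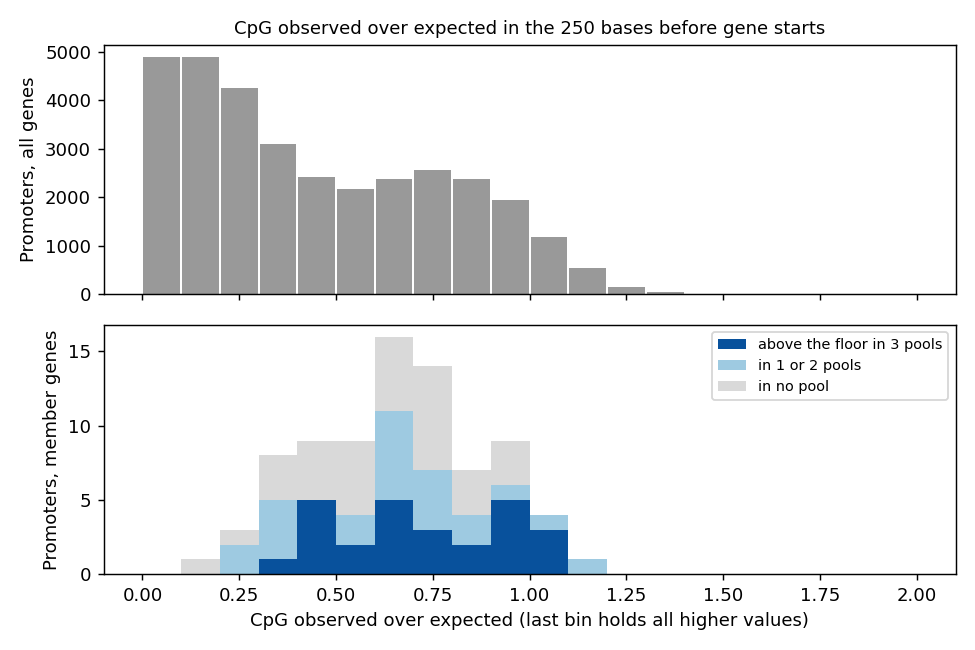
CpG observed over expected in the 250 bases before gene starts, in bins of 0.1, as numbers of promoters for all genes in the RefSeq table (upper panel) and for member genes (lower panel, coloured by the number of pools in which the gene's brightest probe set was above the floor). Member promoters lie mostly in the upper part of the range, with a median of 0.68 against 0.37 for all, and detected and undetected members overlap.

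The signals are scaled intensities, and a mean is given ± SD with n = 3 pools. The 90th percentile of 19 bacterial and yeast control probe sets served as each array's background floor, which was 100.5, 124.8 and 120.4 in pools 1, 2 and 3. Probe sets whose mean signal passed the mean floor are called measured, and spreads and folds were taken after raising lower signals to the floor. Each probe set binds its target with its own strength, so signals of different probe sets are not read as relative amounts of RNA. To check the label of neural retina, markers with a probe set were counted. Those above the floor in every pool were 11 of 11 for rods, 5 of 6 for cones, 5 of 5 for bipolar, 6 of 7 for amacrine, 3 of 4 for horizontal, 7 of 7 for ganglion and 5 of 7 for Müller cells. The rod gene Prph2 differed widely, at 9356.3, 1469.1 and 1332.3. Blood markers were above the floor for 3 of 3 genes, with sums of 20541, 12672 and 10546. All 9 lens markers with a probe set were above the floor as well, with summed signals of 88357, 23502 and 181622 in pools 1, 2 and 3, and pool 3 had the highest signal for the pigment gene Pmel (319.7, 327.7 and 908). Forebrain markers were above the floor in all pools for 0 of 3 genes. Xist, the RNA of the inactive X chromosome, had 69.5, 1384.4 and 1543.7 in pools 1, 2 and 3, of which only the first lay under the floor. Dividing the 3' by the 5' actin control signal gave 1.10, 1.40 and 1.63, and the same ratio for Gapdh was 0.82, 0.90 and 0.75.

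Most members gave little or no signal in the P10 retina. Of 118 probe sets, 35 (29.7%) were above the floor in all pools, against 57.9% of all probe sets, and 50 (42.4%) were above it in none, against 23.3% of all. Another 33 were above it in 1 or 2 pools. With all probe sets ranked by mean signal, 10 members lay in the brightest 25% and 52 in the dimmest 25%. Taking the brightest probe set of each gene, 31 of 98 genes (31.6%) were above the floor in all pools. Of 39 genes listed as factors of retinal development, 22 had a member probe set. Of these 22, 11 were above the floor in all pools and 8 in none, and of the other 76 member genes 20 were above it in all pools and 31 in none.

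**Figure D2:**
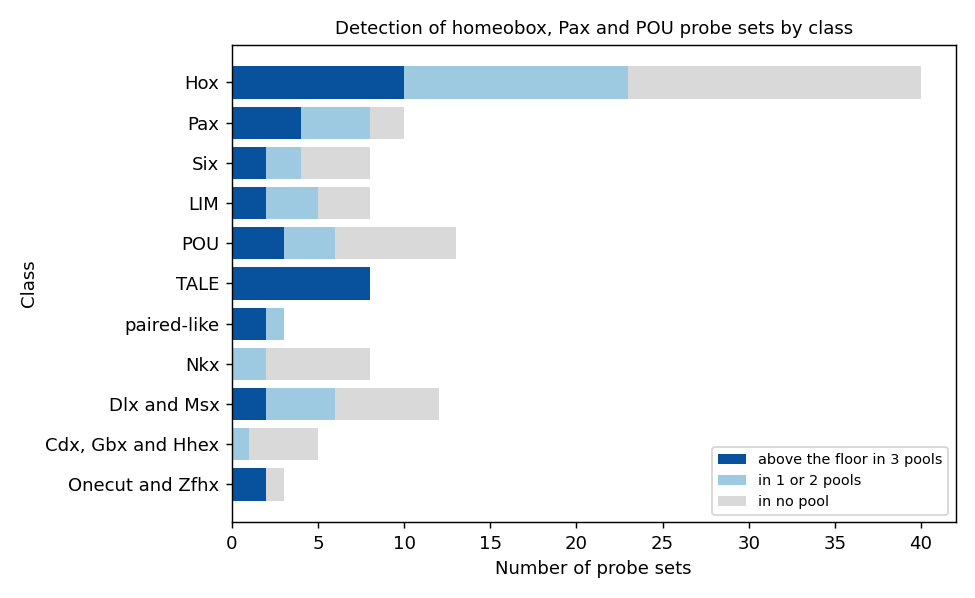
Number of member probe sets in each class, divided by whether the signal was above the background floor in all 3 pools, in 1 or 2 pools or in none. All 8 TALE probe sets (Meis, Pbx and Irx genes) were above the floor in all pools, whereas 10 of 40 Hox and 0 of 8 Nkx probe sets were.

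Of the factors of the early eye field, Pax6, Rax and 1 of the 2 Six3 probe sets were above the floor in all pools, and Six6 was above it in none. Pax6, which carries both a paired domain and a homeodomain and is needed for eye formation, had signals of 1663.7, 1707.8 and 1856.4 in pools 1, 2 and 3. Its mean of 1743 ± 101 exceeded that of 92.4% of all probe sets, and its range was 1.12-fold. Rax, the retinal homeobox factor of progenitors, had 1676.7, 1416.3 and 1744.8, with pool 2 lowest and a range of 1.23-fold.

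Six3, a partner of Pax6 in eye and forebrain development, had 1375.1, 1229.1 and 998.4. All pools were far above the floor, and the range was 1.38-fold. A second Six3 probe set, made from another sequence record, had only 27.2, 20.3 and 32.6, so the 2 probe sets disagreed on whether the gene was detected. Six6, the close relative of Six3 that also acts in the retina, had 31.5, 14.3 and 35.1 by its single probe set, under the floor in every pool. A probe set under the floor does not show that its gene was silent.

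The LIM class, whose proteins add 2 zinc-binding LIM domains to the homeodomain, was represented by a few detected members. Isl1 had 1515.8, 1465.5 and 966.3, with pool 3 lowest and a range of 1.57-fold. Lhx3, which is known from motor neurons and from a class of bipolar cells, had 575.1, 480.3 and 556. Lhx9, a factor of early retinal neurons, reached 100.5, 32.1 and 37.8 by its brighter probe set, of which the first value equals the floor of its pool to 1 decimal. In all, 2 of 8 LIM probe sets were above the floor in all pools and 3 in none.

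TALE factors, which bind DNA together with Hox and other homeodomain partners, formed the most fully detected class, with all 8 probe sets of 6 genes above the floor in all pools. Pbx3 had 1828, 1782.5 and 1646 by its brightest probe set, a range of 1.11-fold. Its other probe sets had 593.2, 869.1 and 609.2, and 613.8, 612.2 and 735.8, so each of the 3 probe sets placed a different pool highest. Pbx2 had 447.1, 362.8 and 257.6, falling short of a 2-fold range. Meis1 and Meis2, both known from retinal progenitors and amacrine cells, had 250.4 ± 49.5 and 185.2 ± 31.9. Meis3 had 423, 234.4 and 207, and Irx3, an Iroquois factor, 277.2, 185.9 and 161.5. In these last 2 genes pool 1 was highest and the other two pools lay close together.

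In the POU class 3 of 13 probe sets were above the floor in all pools and 7 in none. The shares were 29.7% and 42.4% over all members, and 57.9% and 23.3% over all probe sets. Pou6f1, a brain-enriched POU factor, had 699.3, 398 and 661.8, with pool 2 lowest. Its second probe set had 290, 250.8 and 151.2, with pool 3 lowest, and one of the r class had 95.9, 169.4 and 120.8, with pool 1 lowest. The order of pools for Pou6f1 therefore depended on the probe set. Pou2f3, known from skin and chemosensory cells, had 358.9 ± 26.7. Pou3f2 (Brn2), which acts in neuronal progenitors, had 199.5, 115.9 and 207.2, under the floor in pool 2 alone. Pou3f1, Pou3f4, Pou5f1 and Pou2f2 were under it in every pool.

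Among the remaining Pax genes, Pax2, a factor of the optic stalk and of optic nerve glia, had 256.2, 260.9 and 275.6. This range of 1.08-fold was the narrowest of the 35 members above the floor in all pools. Pax1, known from the vertebral column, had 186.3 ± 32.5, and Paxbp1 1001 ± 75. Zfhx3, a large zinc finger homeodomain protein of neurons, had 575.4 ± 88.0, and Onecut1, which is needed in horizontal cells, 221.6, 130.7 and 171.2. Of the distal-less genes, Dlx1 and Dlx2, which act in ganglion cells and interneurons, were under the floor in every pool, at 9.2, 10.7 and 6.4 and at 78.9, 23.9 and 91.6. Dlx6os2 was the only distal-less member above the floor in all pools, at 167.8, 148.5 and 211.8. Nkx2-2, a ventral neural tube factor, had 78.6, 73.2 and 10.5.

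Several other members had signals near or under the floor. Of the 8 Nkx probe sets 6 were under the floor in every pool, among them Nkx2-5, the heart factor, at 49.2, 32.6 and 48. Gbx2, of the midbrain-hindbrain boundary, had 40.3, 37.1 and 26.6, and Msx2, a relative of Msx1, had 27.5, 20.6 and 13.6. Neither overlapped the floor in any pool. The intestinal factors Cdx1 and Cdx2 and their relative Cdx4 were under the floor in all pools. Hhex, known from liver and blood, was above it in pools 1 and 3, with 122, 87.5 and 143.9. Six4, a muscle and sensory placode factor, had 3 probe sets that were above the floor in 2, 1 and 0 pools. The brightest of them by mean had 31.7, 108 and 158.9 and another 110.2, 128.6 and 31.6, so they differed in which pools passed. Dlx5 and Dlx6, of limb and forebrain, and Pax9, of teeth and vertebrae, were under the floor throughout. The second Dlx6os2 probe set passed it in pool 3 alone, at 75.5, 54.9 and 132.6.

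**Figure D3:**
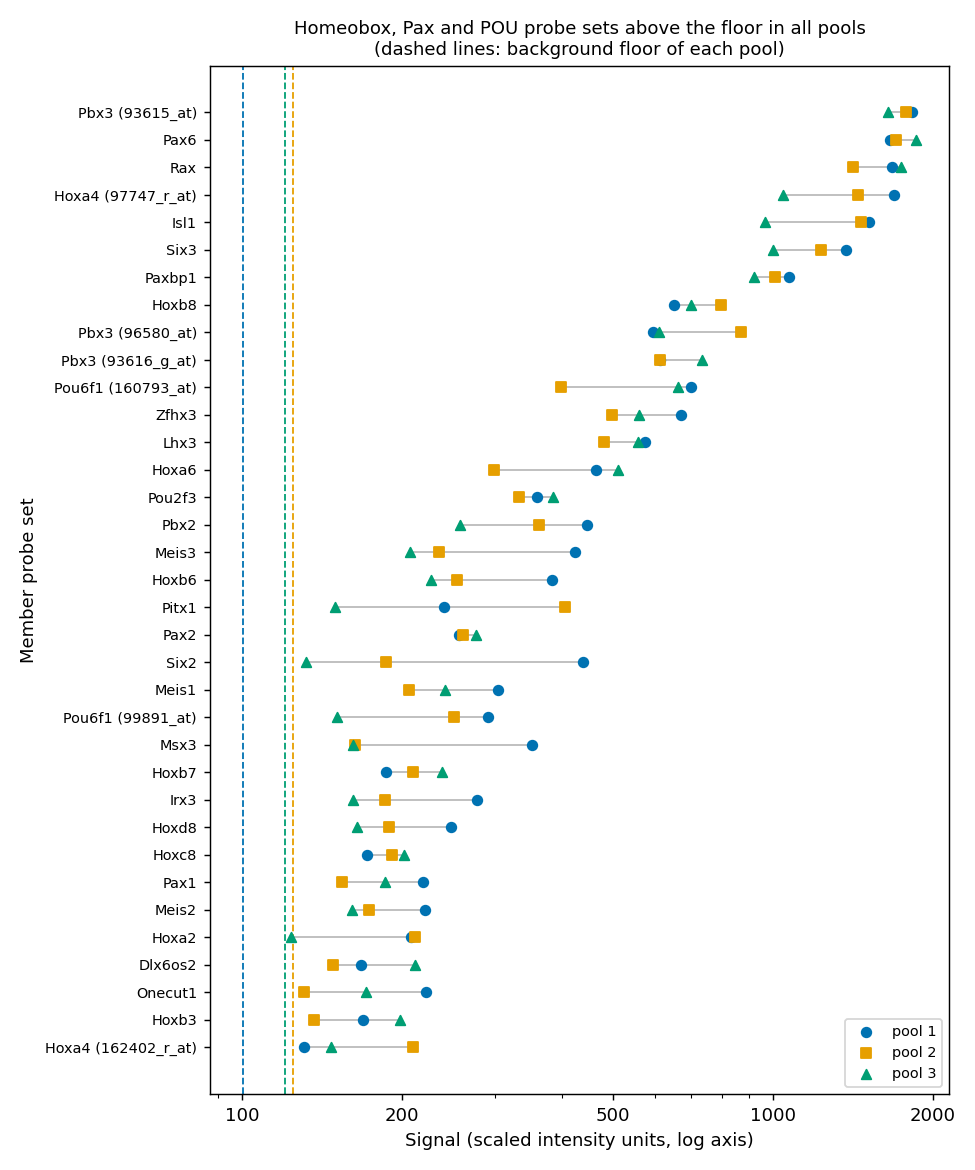
Signal of the 35 member probe sets above the floor in all pools, on a log axis in scaled intensity units, with 1 symbol per pool and dashed lines for the floor of each pool. Pbx3, Pax6 and Rax lie at the top with narrow ranges, and Six2 and Pitx1 have the widest ranges.

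Few Hox probe sets gave signal in every pool, and for several genes the probe sets disagreed. Of 40 Hox probe sets for 32 genes, 10 were above the floor in all pools and 17 in none. All 4 Hox probe sets of the r class, whose probes were chosen under relaxed design rules, were among the 10, whereas 6 of the 36 others (16.7%) were. Over the whole array 344 of 901 r-class probe sets (38.2%) were above the floor in all pools. For Hoxa4 one r-class probe set had 1687.8, 1446.6 and 1046, and an f-class probe set made from the same sequence record had 3.1, 5.2 and 8.2. The other r-class probe set of Hoxa4 had 130.9, 209.4 and 146.7, and its remaining one 134.6, 68.9 and 71.1, above the floor in pool 1 alone. Hoxb8 had 650.7, 799.1 and 702.1 by an r-class probe set and 23.2, 89.2 and 15.7 by an s-class one from the same record. Hoxa6 had 464.4, 298 and 509.8 by r class and 23.1, 8.9 and 32.7 by f class, again from 1 record. In all 3 genes the probe sets thus disagreed on detection, and which of them reports the named gene was not tested.

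Hoxa2, of the hindbrain and its neural crest, had 207.7, 211.9 and 123.4, with pool 3 just above its floor, and Hoxb3, also of the hindbrain, had 168.9, 136.7 and 197.9. Hoxa2, Hoxb3, Hoxb6, Hoxb7 and Hoxc8 each had a single member probe set. A probe set that the annotation gives to both Hoxb8 and Hoxb7 had 344.5, 384.2 and 406.7, above the floor in all pools. Hoxa3 and Hoxa9 passed the floor in pools 1 and 3, with 135.2, 74.9 and 139.8 and with 172.8, 85.5 and 147.3. The antisense RNA Hoxa11os had 149.2, 110.7 and 145.7 by one probe set and 20.8, 164.5 and 21.6 by another, so these passed the floor in different pools. Outside the r class, Hoxb6 was the brightest Hox probe set, with 383.6, 254.1 and 226.6. Hoxb7 had 211.5 ± 25.7, Hoxc8 188.3 ± 14.9 and Hoxd8 200.6 ± 42.8, while a second Hoxd8 probe set, at 95, 117.8 and 47.7, was under the floor in all pools. By cluster, 4 of 16 Hoxa, 4 of 10 Hoxb, 1 of 5 Hoxc and 1 of 9 Hoxd probe sets were above the floor in all pools, and 7 of the 9 Hoxd probe sets were above it in none. Among these 7 were Hoxd13, at 23.1, 16 and 18.6, and Hoxd12, at 13.1, 10.4 and 17.2.

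With the floor raised to the highest control on each array (209.1, 172.8 and 210.6), 19 members (16.1%) stayed above it in all pools, against 47.0% of all probe sets. They belonged to 17 genes: Pbx3, Pax6, Rax, Hoxa4, Isl1, Six3, Paxbp1, Hoxb8, Pou6f1, Zfhx3, Lhx3, Hoxa6, Pou2f3, Pbx2, Hoxb6, Pax2 and Meis1. The 3 probe sets of the r class among the 19 were those of Hoxa4, Hoxb8 and Hoxa6, which left Hoxb6 as the only other Hox gene.

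No member passed the test of variability between pools. It asked, over all 8327 measured probe sets, whether a probe set's variance exceeded the trend for its signal (limma, Benjamini-Hochberg adjustment, threshold 0.05). The test called 0 of the 52 measured members and 18 probe sets in all (0.216%). An unadjusted p under 0.05 was found for 5 of the 52 members (9.62%) and for 445 of the 8327 (5.34%). The median SD of log2 signal was 0.35 over the measured members and 0.27 over all measured probe sets. Members were dimmer than most, and in 4 bins of mean signal with equal numbers of probe sets their median SDs were 0.38, 0.41, 0.18 and 0.16 from dimmest to brightest, against 0.36, 0.30, 0.24 and 0.21 for all. The 52 passed a filter on low values, and the other 66 members were left out of these spreads.

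**Figure D4:**
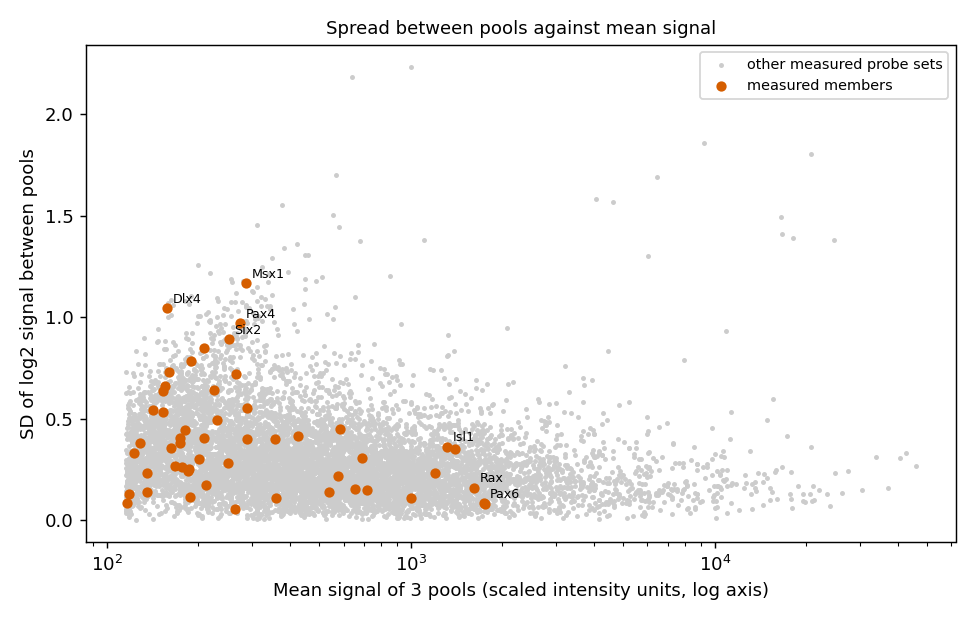
SD of log2 signal between the 3 pools (vertical axis) against mean signal in scaled intensity units (log axis) for measured members (orange) and all other measured probe sets (grey). Msx1, Dlx4, Pax4 and Six2 have the highest SDs among members, and Pax6 and Rax lie at the low end.

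A range of more than 2-fold was seen in 12 of the 52 measured members (23.1%), against 13.2% of all measured probe sets. These shares were not matched for signal, and 28 of the 52 members lay in the dimmest of the 4 bins, where spreads were widest over all probe sets. Some members, such as Dlx4, counted as measured only through 1 high pool. The brightest of the 12 had a mean signal of 288, and 0 of them passed the limma test above. Between single pairs of pools, 2 members were over 2-fold higher and 3 over 2-fold lower in pool 1 than in pool 2 (backgrounds of 2.73% and 3.52%). For pool 1 against pool 3 these numbers were 4 and 6 (3.11% and 3.81%), and for pool 2 against pool 3 they were 2 and 2 (2.73% and 2.38%). Each pool is 1 array, so these are differences between arrays with no replicate check.

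At the floor used, Msx1, a homeobox repressor known from the ciliary margin of the eye, had the widest range, with 47.8, 447.3 and 364.2 in pools 1, 2 and 3. Pool 1 was under its floor, against which pool 2 was at least 4.45-fold and pool 3 at least 3.62-fold higher (limma, adjusted p = 0.56, with 0.069 to 0.995 over 10 alternatives). Without pool 1 its log2 range was 0.30 in place of 2.15. The order depended on the floor: with it at the median control the log2 range was 3.23 for both Dlx4 and Msx1, and with it at the highest control Six2 (1.23) and Pax4 (1.12) exceeded Msx1 (1.10). Pax8, known from thyroid and kidney, had 67.7, 265.3 and 290.7, at least 2.64-fold and 2.89-fold higher in pools 2 and 3 than the floor of pool 1. The same pattern, under the floor in pool 1 and above it in the other two, was seen in Pax3 (79.9, 199.2 and 179), Hoxb5 (75.8, 194.2 and 296.4), Hoxc5 (32.9, 194.5 and 232.2), Hoxb1 (81.2, 247.6 and 138), Nkx1-2 (40.8, 187.1 and 197.9), Lhx6 and the r-class probe set of Pou6f1. These 9 members were 7.63% of 118, against 2.11% of all probe sets. Of probe sets above the floor in 1 or 2 pools they were 27.3% (9 of 33), against 11.3% (262 of 2326). The opposite pattern, above the floor in pool 1 alone, was found in 8 members (6.78%), against 5.03% of all. Of probe sets above the floor in 1 or 2 pools these were 24.2% of members and 26.9% of all. Vax1, a homeodomain factor of the optic stalk that is not a member, had 46.8, 370.4 and 327.4. Xist was likewise under the floor in pool 1 alone. Several summed marker signals were lowest in pool 1 too: rod at 86949, 101945 and 90171, bipolar at 7427, 8538 and 9276, pigmented cells at 1517, 1600 and 2522 and endothelium at 1500, 1658 and 2019. Not every gene followed the sum of its list: Prph2 of rods and Prkca of bipolar cells (548.2, 413.2 and 331.7) were highest in pool 1. In the bipolar list Gnao1 (4890.6, 6617 and 6227.2) and Car8 were lowest in pool 1, and Pcp2 and Trpm1 in pool 2. Of pigmented cell genes, Pmel, Rrh, Tyrp1 and Tyr were lowest in pool 1, with Tyrp1 and Tyr under the floor there. Dct and Ttr were lowest in pool 2. Rom1, Pde6a and Pde6b of rods were lowest in pool 3, Pecam1 of endothelium in pool 2 and Cdh5 in pool 3. Optic nerve markers, at 1830, 1527 and 2010, and lens markers were lowest in pool 2. The actin ratio was lowest in pool 1 and the Gapdh ratio in pool 3. The part of any of these in the members' differences was not tested.

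Other wide ranges had other orders. Pax4, a pancreatic islet factor also described in photoreceptors of the rat, had 457.6, 272.9 and 93.7. Six2, a factor of kidney progenitors, had 438.3, 186.5 and 131.8, and Msx3 had 351.5, 163.3 and 161.4. These 3 genes and Meis3 were highest in pool 1. Dlx4 was above the floor in pool 3 alone, with 39.7, 45.8 and 386.8, and Pax5, a B-cell factor, had 111.4, 88.6 and 281.1. A second Pax5 probe set had 31.6, 36.4 and 39.1, under the floor in every pool. Pitx1, known from the hindlimb and pituitary, was highest in pool 2, with 240.5, 406.4 and 149.4. The adjusted p-values of Dlx4, Pax4 and Six2 were 0.68, 0.74 and 0.83 (limma).

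**Figure D5:**
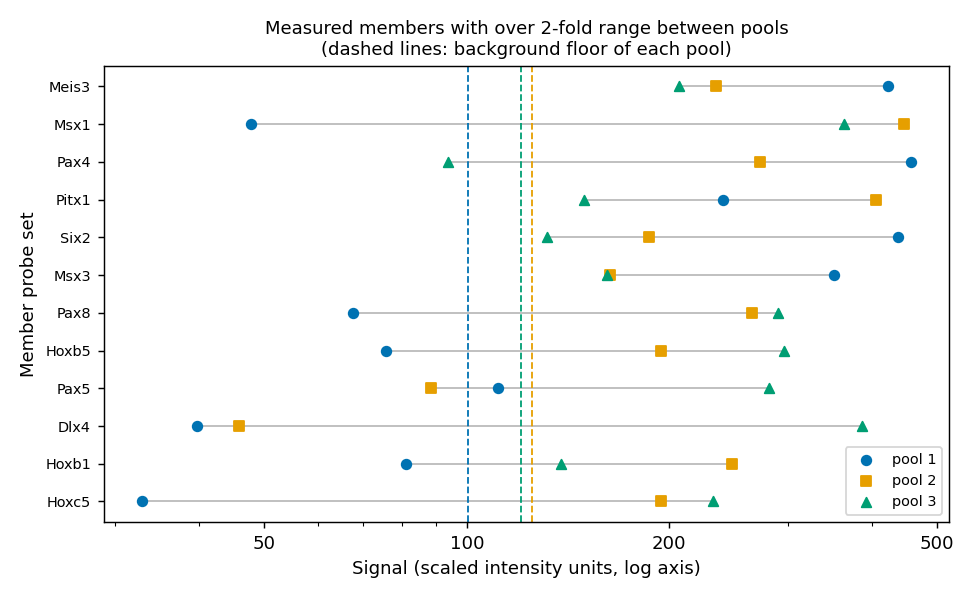
Signal in each pool (log axis, scaled intensity units, 1 symbol per pool) of the 12 measured members whose floored signal ranged over 2-fold, with dashed lines for the floor of each pool. Msx1, Pax8, Hoxb1, Hoxb5 and Hoxc5 were under the floor in pool 1, Pax4 in pool 3, Pax5 in pool 2, and Dlx4 in pools 1 and 2.

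Of measured members, 23 of 52 (44.2%) were highest in pool 1, against 34.1% of all measured probe sets. The median of their log2 differences was 0.11 for pool 1 less pool 2 and -0.0021 for pool 1 less pool 3. The share was higher among the 35 above the floor in all pools, a choice that leaves out the members under the floor in pool 1. Of the 35, 20 (57.1%) were highest in pool 1, against 33.7% of the 7198 probe sets above the floor in all pools. On the log2 scale their median excess of pool 1 was 0.22 over pool 2 and 0.23 over pool 3, against -0.01 in both cases over the 7198. After quantile normalization the members' medians were 0.24 and 0.23. In 4 bins of mean signal, from dimmest to brightest, 11 of 19, 1 of 3, 4 of 7 and 4 of 6 members were highest in pool 1, against 32.5%, 34.4%, 35.2% and 32.6% of all. Summed blood markers and horizontal cell markers (3633, 3283 and 2775) were highest in pool 1 as well. So were the sums for Müller cells (20232, 18311 and 19754) and muscle (1150, 850 and 1051). The forebrain sum (197.5, 108.7 and 139.5) held mostly signals under the floor, with Camk2a and Neurod6 under it in every pool. Within the horizontal list, Calb1 was lowest in pool 1, at 362.8, 481.9 and 400.2. Of the Müller genes, Apoe (6567.3, 4017.7 and 5037.6) and Dkk3 were highest in pool 1. Rlbp1 (2014.4, 2832 and 3172.5), Car2 and Aqp4 were lowest there, and Glul and Vim were highest in pool 2. Of the muscle genes, Tnnc2 and Mylpf were highest in pool 1, Ckm and Tnnt3 were lowest there, and Myh4 and Acta1 were highest in other pools. The actin ratio was lowest in pool 1. The part of any of these was not tested. Examples of members highest in pool 1 are Isl1, Six3, Lhx3 and Pbx2, with the values given above. Zfhx3 (670.7, 497.1 and 558.5) and Meis1 (303.8, 206.1 and 241.3) are others, and none of these genes was past the variability test. Pool 1 led narrowly in some, by a log2 difference of 0.049 over pool 2 for Isl1 and 0.049 over pool 3 for Lhx3.

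Homeodomain genes outside the named families and the cofactors of these proteins were read for comparison from lists. Of 63 other homeodomain genes 37 had a probe set, and 13 of these were above the floor in all pools. The brightest was Crx, the photoreceptor homeodomain factor, at 9534.7, 8344.9 and 7996.3. Hopx, a small homeodomain protein without DNA binding, had 1420 ± 297, Cux1 1293.2 ± 64.9, Zhx1 902 ± 244, Vax2 (a factor of the ventral retina) 702.7 ± 64.9, Prox1 (in horizontal cells) 618 ± 197, the repressor Zeb1 567.4 ± 35.7 and Pknox1 (a TALE partner of Pbx) 533.1 ± 34.5. These values are of the brightest probe set of each gene. Other probe sets of Cux1 (49.2, 14.9 and 35.8) and Zeb1 (99.9, 94.8 and 37.4) were under the floor in every pool. Another of Zhx1 passed it in pool 3 alone, at 32.4, 81.9 and 173.2. Cofactors were detected more widely, with 23 of 27 genes that had a probe set above the floor in all pools.

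Among the cofactors, Tle5, of the Groucho corepressor family, had 4547, 3082.1 and 4420.1. Sbno1 had 3338 ± 610 by its brightest probe set, Cxxc5 1323 ± 264 and Crebbp, a histone acetyltransferase, 969.6, 630.1 and 1396.2. Partners of LIM homeodomain proteins with signal in every pool included Ldb1 at 748 ± 147, Ldb2 at 790 ± 127, the adaptor Ssbp2 at 1575 ± 290, and the LIM-only proteins Lmo1 at 1245 ± 188 and Lmo4 at 1207 ± 385. Lmo4 was highest in pool 2, at 1647.4, against 930.8 and 1043.5. Eya1, a coactivator of Six3 relatives, had 872 ± 137 by its brighter probe set and 191.8, 96.3 and 74.1 by the other. Eya2 and Eya4 were under the floor in every pool. Dach1, of the same network, had 155.2 ± 4.9 by its brighter probe set. Hcfc1, a coactivator that binds POU proteins, had 1211 ± 205. The variability test called 0 of 23 measured probe sets of the homeodomain list and 0 of 30 of the cofactor list (limma), with 1 unadjusted p under 0.05 in each. Their median SDs were 0.29 and 0.28.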

How the data were processed

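Each array measured total RNA of 1 retina pool. The authors deposited 1 linear intensity per probe set and array. The sources used here name neither the software nor the background method. The deposited columns had nearly equal means after trimming 2% at each end (500.26, 500.25 and 500.26), so they were used without further scaling. A blank row and 66 control probe sets were left out of the gene results. The lowest signal was 0.6 and the highest 74893.5. No depth in reads exists for arrays.

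Floored signals were log2-transformed. The variability test was run in R 4.3.3 with limma 3.58.1. A model with a mean alone was fitted to each probe set, then a robust F distribution with a trend on intensity to the residual variances of all measured probe sets, and the tail p of each variance. A check on simulated data set a pass mark for recovery only at a change wider than any member's range at the floor used. It therefore does not show that changes of the members' size could be called. Tables and figures used Python 3.11.15, pandas 2.3.3, numpy 2.4.6 and matplotlib 3.10.9.

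The rule for named genes took the 10 members with the widest range, up to 4 of the highest signal per family, genes with more than 1 measured probe set, every gene of a list of retinal factors, and the 8 of highest signal from each other list. Vax1, Ldb1, Ldb2, Eya1, Eya2, Eya4, Dach1, Pmel, Prph2 and the other marker genes named singly were chosen after their values were seen. So were members named beyond the rule (such as Hoxd12, Hoxd13, Pax1 and Pax3). Members, lists and tests were chosen with earlier results of these data known. Alternatives were another scaling, other floors, a pseudocount of 32, other filters and variance models, members with a domain only, and each pool left out.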

Additional observations from a re-analysis of the deposited data

Results flagged for a closer look

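Probe sets that the annotation gives to 2 genes each were not members, and 2 of the 3 that name genes of these families were above the floor in all pools. The one for Hoxb8 and Hoxb7 had 344.5, 384.2 and 406.7 in pools 1, 2 and 3, and one for Hoxd4 and Hoxd3 had 160.1, 174.2 and 153.8. The other for Hoxd4 and Hoxd3 had 36.2, 66.1 and 70.1, under the floor in every pool.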

How the results depend on the processing

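The number of members past the variability threshold was 0 in the reported fit and in each alternative tried (limma), with 1 to 8 unadjusted p-values under 0.05 among members except with the 25% brightest probe sets, where there were 0. Over 43 named probe sets and 416 values under alternatives, 0 passed, and the lowest adjusted p was 0.069 (Msx1, with no filter on low signals). The number of members above the floor in all pools was 35 as reported, 53 with the floor at the median control and 19 with it at the highest control, which follows from the floor itself. The number with over 2-fold range was 12 as reported, 36 with the floor at the median control, 5 with it at the highest control and 0 among the 25% brightest probe sets. Leaving out 1 pool gave 4 to 10 (4 without pool 1 and 5 without pool 3), with fewer pairs of pools by construction. The median SD was 0.35 as reported, 0.46 and 0.26 with the lower and the higher floor, 0.17 with no filter and 0.16 among the brightest 25%, and 0.21 to 0.31 with 1 pool left out. No paired analysis was possible because there was 1 group. Signals near the floor limit what can be said of 83 of the 118 members, which were not above it in all pools.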
